A study of Mus musculus with 9 samples.

Results

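The Slc25 genes encode the mitochondrial solute carriers, the largest family of transporters in the inner mitochondrial membrane. They were followed here in cultured mouse fat cells given sodium alginate, the salt of a brown seaweed polysaccharide. All protein-coding genes of the deposited table whose symbol is Slc25a followed by a number were taken, which gave 47 of 41761 genes. Their substrate classes were assigned from textbook knowledge, and 38 of the 47 fell into 10 classes. The cells were stromal cells of inguinal fat (the subcutaneous depot of the groin) from wild type C57 mice, led through white adipocyte differentiation in culture. There were 3 doses of alginate, 0, 50 and 100 µM, with 3 libraries each and 9 in all. Cells of every dose, 0 µM included, received 1 µM dexamethasone, 0.5 mM IBMX, 1 µg/ml insulin and, in the treatment protocol but not in the design text, 1 µM rosiglitazone, an agonist of the nuclear receptor PPARγ. The libraries assigned to 100 µM here carry 50 µM in their titles, and the dose was taken from the treatment label and the name of the library. RNA was collected on day 6 by the titles and on day 7 by the protocol. The labels do not tell whether each library was made from its own culture or animal. The p-values therefore rest on the scatter among these libraries, which may be technical.

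Each carrier of this family is built from repeats of a small membrane domain and moves one or a few metabolites, often as an exchange of one for another. In fat cells the citrate carrier brings carbon for fatty acid synthesis out to the cytosol, the acylcarnitine carrier brings fatty acids in for oxidation, and the ADP/ATP and phosphate carriers serve ATP synthesis. Others supply the matrix with amino acids, cofactors, nucleotides, glutathione and iron.

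Expression was deposited as FPKM, that is, reads per kilobase of gene adjusted for library depth, so levels can be set side by side between genes. The depth used was not the plain sum of rebuilt reads. It was 1.013 to 1.027 times that sum at 0 µM, 1.019 to 1.023 times at 50 µM and 0.969 to 0.976 times at 100 µM. Relative to the other doses, FPKM at 100 µM are therefore higher than on plain read totals. Rebuilt reads ranged from 14314663 to 14583502 per library at 0 µM, from 15359348 to 16523540 at 50 µM and from 14019672 to 17094467 at 100 µM. White adipocyte markers had 8 of 8 genes higher at 100 µM than at 0 µM, and their summed level was 4523 to 4659 FPKM at 0 µM, 4892 to 5376 FPKM at 50 µM and 6605 to 7115 FPKM at 100 µM. For these markers, higher and lower mean an adjusted p below 0.05 in the limma test given further on. Over all tested genes, 18.3% were called higher and 15.6% lower at 100 µM against 0 µM. Of the tested markers of other cells, 4 of 5 of adipose progenitors, 7 of 8 of macrophages and 7 of 7 of endothelium were lower at 100 µM, and their summed levels per library were 334 to 398, 172 to 179 and 109 to 115 FPKM at 100 µM, against 597 to 658, 217 to 244 and 131 to 144 FPKM at 0 µM. The mesothelial list had 1 tested gene, Krt19, which was lower, and none of 2 skeletal muscle genes was called. Of the 3 tested brown or beige adipocyte genes, Ppargc1a and Cidea were called higher and Dio2 was not called, while Ucp1 was under the filter. Cidea had 2.06, 1.96 and 1.43 FPKM at 100 µM, against 1.01, 0.229 and 0.231 FPKM at 0 µM. It passed the filter only through its 100 µM libraries, so its call carries no weight. No erythroid, T lymphocyte or epithelial marker reached the filter, and Hba-a1 and Cd3d were at 0 in every library. The part of these cell type markers in the changes of the carriers was not tested. In such bulk samples, fewer cells of a type and less RNA per cell cannot be told apart.

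Of the 47 carriers, 36 had 3 or more of the 9 libraries at 1 FPKM or above and were tested. The family was led by Slc25a5, one of the ADP/ATP carriers, at a mean of 439 FPKM over the 9 libraries, and 18 members averaged at least 10 FPKM. Slc25a47, a liver-associated carrier, was the lowest that passed the filter at a mean of 1.22 FPKM, and Slc25a27, known as uncoupling protein 4, was the highest that did not, at 0.715 FPKM. The 11 members under the filter also included Slc25a13, the aspartate/glutamate carrier citrin, at 0.399 FPKM, the glutamate carrier Slc25a18 at 0.389 FPKM and the orphan carrier Slc25a53 at 0.686 FPKM. Slc25a43, Slc25a2, Slc25a31, Slc25a48 and Slc25a21 averaged 0.129 FPKM or less, and Slc25a41 and Slc25a54 were listed at 0 in every library.

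**Figure D1:**
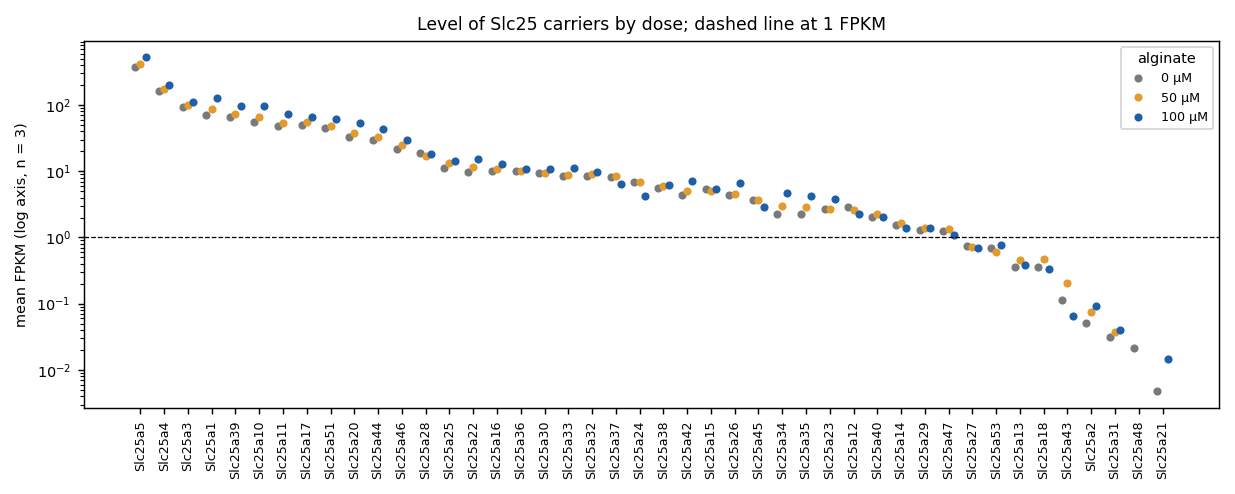
Mean FPKM (log axis, n = 3 libraries per dose) of 44 Slc25 carriers at 0, 50 and 100 µM alginate, ordered by the mean over all libraries, with a dashed line at 1 FPKM. The levels run downward from Slc25a5 at 439 FPKM, and means at 0 cannot be drawn on a log axis.

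At 100 µM against 0 µM alginate, 21 of the 36 tested carriers were higher, 4 were lower and 11 were not called. The tests used limma on log2(FPKM + 1) with Benjamini-Hochberg adjustment over all 12635 tested genes, and a call means an adjusted p below 0.05. Over all tested genes, 18.3% were called higher and 15.6% lower, whereas for the carriers the shares were 58.3% and 11.1%. The median log2 fold change was 0.33 over the carriers and 0.01 over all tested genes. Without a filter on low values, 45 carriers were fitted and their median was 0.17. The 3 values at 100 µM lay wholly above the 3 at 0 µM for 23 carriers (63.9%) and wholly below for 4 (11.1%). Over all genes these shares were 25.0% and 22.9%. Scaled to plain read totals, all genes split into 1731 higher and 2658 lower, in place of 2314 higher and 1965 lower, while the carriers again counted 21 higher and 4 lower. On the TPM scale the split was 1630 and 2633 over all genes, and 19 and 4 over the carriers.

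Summed over all 47 members, the carriers reached 1663, 1708 and 1638 FPKM at 100 µM, against 1171, 1231 and 1232 FPKM at 0 µM. The groups did not overlap, with 1670 ± 35.5 FPKM at 100 µM and 1211 ± 34.8 FPKM at 0 µM (SD, n = 3 each), a ratio of 1.38. At 50 µM the sum was 1340 ± 14.9 FPKM (SD, n = 3), 1.11 times the 0 µM value, and it too did not overlap with 0 µM. An exact two-sided permutation test gave p = 0.1 for each of these 2 comparisons, the smallest value that 3 against 3 libraries allow. As a share of all reads, the family took 0.465% ± 0.00879 at 100 µM and 0.359% ± 0.00694 at 0 µM (SD, n = 3 each), a ratio of 1.29.

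**Figure D2:**
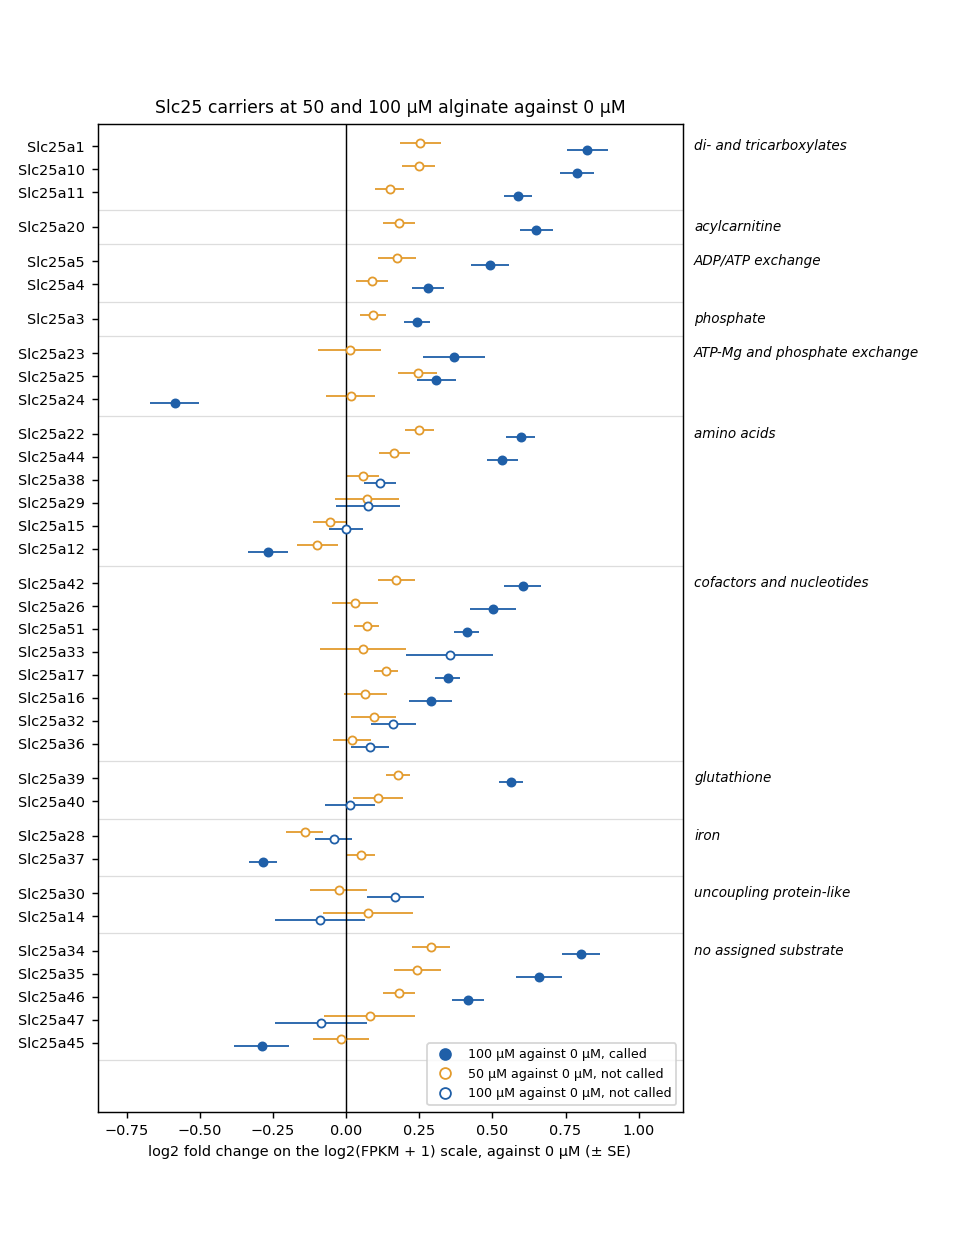
Log2 fold change (± SE, on the log2(FPKM + 1) scale) of 35 of the tested Slc25 carriers at 50 and 100 µM alginate against 0 µM, grouped by substrate class. Filled points passed the adjusted p threshold of 0.05. In the plot 20 carriers were called to the right of zero and 4 to the left at 100 µM, and none was called at 50 µM.

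All 3 tested carriers of di- and tricarboxylates were higher at 100 µM, and they included the largest rise of the family on the log2(FPKM + 1) scale. Slc25a1, the citrate carrier that feeds cytosolic acetyl-CoA for fatty acid synthesis, lies on the minus strand of chromosome 16 (15357587 to 15360595 in the C57BL/6NJ strain assembly that the table uses). Slc25a10, which exchanges malate or succinate for phosphate, lies on the plus strand of chromosome 11 (128738486 to 128745834, same assembly). Slc25a24, an ATP-Mg/phosphate carrier described further on, had the largest fall and lies on the plus strand of chromosome 3 (114826206 to 114870275, same assembly). The promoters of these 3 genes are printed because they stand near both ends of the range of changes. Each covers 250 bases before to 50 bases after the start of the gene, 5′ to 3′ on the strand of the gene, from RefSeq on build GRCm38.p6, at chr16:17928170-17928469 (minus strand), chr11:120491587-120491886 (plus strand) and chr3:109122899-109123198 (plus strand). Capitals mark the CCAAT box (CCAAT, or ATTGG where it lies on the opposite strand), the E-box CACGTG and the GC box (GGGGCGGGG, or CCCCGCCCC on the opposite strand).
Slc25a1: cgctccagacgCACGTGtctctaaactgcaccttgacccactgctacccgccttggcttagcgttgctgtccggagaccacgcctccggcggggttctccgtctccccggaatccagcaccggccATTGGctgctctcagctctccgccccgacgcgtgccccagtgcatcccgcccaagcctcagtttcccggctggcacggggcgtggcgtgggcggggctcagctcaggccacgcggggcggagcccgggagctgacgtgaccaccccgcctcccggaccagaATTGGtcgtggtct
Slc25a10: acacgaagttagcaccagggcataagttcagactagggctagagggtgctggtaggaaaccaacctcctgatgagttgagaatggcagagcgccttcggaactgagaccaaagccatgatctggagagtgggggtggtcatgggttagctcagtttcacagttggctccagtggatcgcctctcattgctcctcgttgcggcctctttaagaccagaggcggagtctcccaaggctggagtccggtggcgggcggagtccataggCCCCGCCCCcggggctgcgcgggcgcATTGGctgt
Slc25a24: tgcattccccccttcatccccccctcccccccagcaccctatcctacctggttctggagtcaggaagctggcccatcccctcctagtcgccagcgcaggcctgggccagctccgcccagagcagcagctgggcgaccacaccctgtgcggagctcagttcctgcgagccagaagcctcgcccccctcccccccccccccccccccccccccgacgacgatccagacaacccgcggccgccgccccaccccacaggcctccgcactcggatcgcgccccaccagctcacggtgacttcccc

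The Slc25a1 window held ATTGG 125 bases before the start and again at base 37 after it, and CACGTG 239 bases before the start. The Slc25a10 window held ATTGG at base 42 and CCCCGCCCC at base 16 after the start, and the Slc25a24 window held none of the 6 motifs searched. Promoter windows were found for 36 of the 47 carriers, 46 windows in all among 32851 of the same length, and both strands were searched. CCAAT was in 47.8% of the carriers' windows and 37.4% of all windows, CACGTG in 17.4% and 7.15%, GGGGCGGGG in 13.0% and 11.4%, and the NRF1 motif (GCGCA and GCGC with 1 free base between) in 4.35% and 4.60%. TCAAGGTCA, an estrogen-related receptor motif, and AGGTCA repeated with 1 free base between, a site bound by PPAR and its partner, were in 0 of the 46 windows and in 0.423% and 0.0396% of all windows. Windows were found for 15 carriers called higher at the highest dose against cells without alginate. Of these, only Slc25a1 held CACGTG (6.67%, against 8.09% of all genes with windows). CCAAT was in 10 of the 15 (66.7% against 41.1%), GGGGCGGGG in 4 (26.7% against 12.9%) and the NRF1 motif in 1 (6.67% against 5.19%). Counted by gene over all 36 carriers with windows, whatever their change, CCAAT was in 52.8% and CACGTG in 19.4%. GGGGCGGGG was in 16.7% of them and the NRF1 motif in 5.56%. A link between these motifs and the rises was not tested. These matches describe letters in these windows and show no binding. No window was at hand for 11 carriers, among them Slc25a35 and Slc25a37.

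Slc25a1 had 115, 136 and 133 FPKM in the 100 µM libraries, against 72.2, 76.5 and 66.9 FPKM in the 0 µM libraries. Every 100 µM library stood above every 0 µM library. The log2 fold change was 0.82 ± 0.0708 (SE, adjusted p = 4.51e-05, limma), and the 50 µM libraries, at 84.0, 88.1 and 85.3 FPKM, lay between the other doses (0.25 against 0 µM, adjusted p = 0.129, not called).

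Slc25a10 had 103, 95 and 92.4 FPKM at 100 µM, against 59.3, 53.5 and 54.1 FPKM at 0 µM. The groups did not overlap, and the log2 fold change was 0.79 ± 0.0569 (SE, adjusted p = 2.15e-05, limma). Its 50 µM libraries, at 67.2, 67.7 and 63.8 FPKM, were above all 0 µM libraries, with a log2 fold change of 0.25 that did not pass the threshold (adjusted p = 0.0835). A gene annotated as antisense, Gm11788, overlaps Slc25a10, and since the use of strand in counting is not given in the labels, their reads may be mixed.

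Slc25a11, the 2-oxoglutarate/malate carrier of the malate-aspartate shuttle, had 73.0, 77.1 and 69.3 FPKM at 100 µM, against 49.9, 46.2 and 48.7 FPKM at 0 µM. The doses did not overlap, and the log2 fold change was 0.59 ± 0.0481 (SE, adjusted p = 3.72e-05, limma). Together the carboxylate carriers made up 17.9% ± 0.291 of the summed family level at 100 µM and 14.5% ± 0.879 at 0 µM (SD, n = 3 each, exact permutation p = 0.1, the smallest possible). The fourth carrier of the class, Slc25a21 for 2-oxoadipate, averaged 0.0144 FPKM or less at every dose and could not be tested.

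Slc25a20, the carnitine/acylcarnitine carrier that takes long-chain fatty acids into the matrix for oxidation, was also higher at 100 µM. It had 54.0, 54.1 and 50.9 FPKM at 100 µM, against 32.5, 31.7 and 36.1 FPKM at 0 µM, with no overlap. The log2 fold change was 0.65 ± 0.0555 (SE, adjusted p = 4.41e-05, limma). Carriers that serve the export of carbon for synthesis and the import of acyl groups for oxidation therefore had higher mRNA levels at the same dose.

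The 2 tested ADP/ATP carriers, which hand ATP from the matrix to the cytosol, had smaller fold changes. Slc25a5, the form that prevails in many tissues other than heart and muscle, had 522, 533 and 518 FPKM at 100 µM, against 334, 390 and 397 FPKM at 0 µM. Slc25a4, the form of heart and muscle, had 205, 206 and 189 FPKM at 100 µM, against 158, 170 and 165 FPKM at 0 µM. Neither gene had overlapping groups. The log2 fold changes were 0.49 ± 0.0654 for Slc25a5 (adjusted p = 0.000474, limma) and 0.28 ± 0.0536 for Slc25a4 (adjusted p = 0.00348, limma). Slc25a4 lost its call after quantile normalization (0.10, adjusted p = 0.102, limma). The ratio of Slc25a4 to Slc25a5 was 0.381 ± 0.0145 at 100 µM and 0.441 ± 0.0288 at 0 µM (SD, n = 3 each), and the groups did not overlap. Slc25a4 alone made up 11.9% ± 0.398 of the summed family level at 100 µM and 13.5% ± 0.202 at 0 µM (SD, n = 3 each), and Slc25a5 made up 31.4% ± 0.216 and 30.8% ± 2.02. ADP/ATP carriers have many close copies in mammalian genomes, so reads could have been split among them. The testis form Slc25a31 stayed under the filter.

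Slc25a3, the phosphate carrier that delivers the other substrate of ATP synthase, had 112, 115 and 108 FPKM at 100 µM, against 96.6, 94.2 and 92.1 FPKM at 0 µM. The values did not overlap, but the step was among the smallest that were called, with a log2 fold change of 0.24 ± 0.0443 (SE, adjusted p = 0.00264, limma).

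The calcium-regulated ATP-Mg/phosphate carriers, which set the size of the adenine nucleotide pool in the matrix, moved in different directions. Slc25a24 had 4.39, 3.97 and 4.28 FPKM at 100 µM, against 6.13, 6.93 and 7.46 FPKM at 0 µM. The 50 µM libraries, at 6.25, 7.69 and 6.84 FPKM, overlapped with 0 µM, and every 100 µM library was below all of both. The log2 fold change at 100 µM against 0 µM was -0.59 ± 0.0841 (SE, adjusted p = 0.000719, limma), and it was -0.60 against 50 µM (adjusted p = 0.00111).

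Slc25a25 had 10.4, 11.8 and 11.5 FPKM at 0 µM, 12.7, 13.9 and 14.0 FPKM at 50 µM, then 13.2, 15.1 and 14.2 FPKM at 100 µM. It was higher at 100 µM than at 0 µM without overlap (0.31 ± 0.0664, adjusted p = 0.00647, limma), whereas 100 µM and 50 µM overlapped (0.06, 95% interval -0.09 to 0.21). Slc25a23 had 4.10, 3.21 and 4.02 FPKM at 100 µM, against 2.70, 2.64 and 2.73 FPKM at 0 µM, a log2 fold change of 0.37 ± 0.107 (SE, adjusted p = 0.0254, limma). That call was lost on the TPM scale, without a filter on low values, and without each of 5 libraries in turn, where the fold change lay between 0.31 and 0.38. The ratio of Slc25a25 to Slc25a24 was 3.37 ± 0.404 at 100 µM and 1.65 ± 0.0930 at 0 µM, and that of Slc25a23 to Slc25a24 was 0.895 ± 0.0739 and 0.395 ± 0.0392 (SD, n = 3 each).

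**Figure D3:**
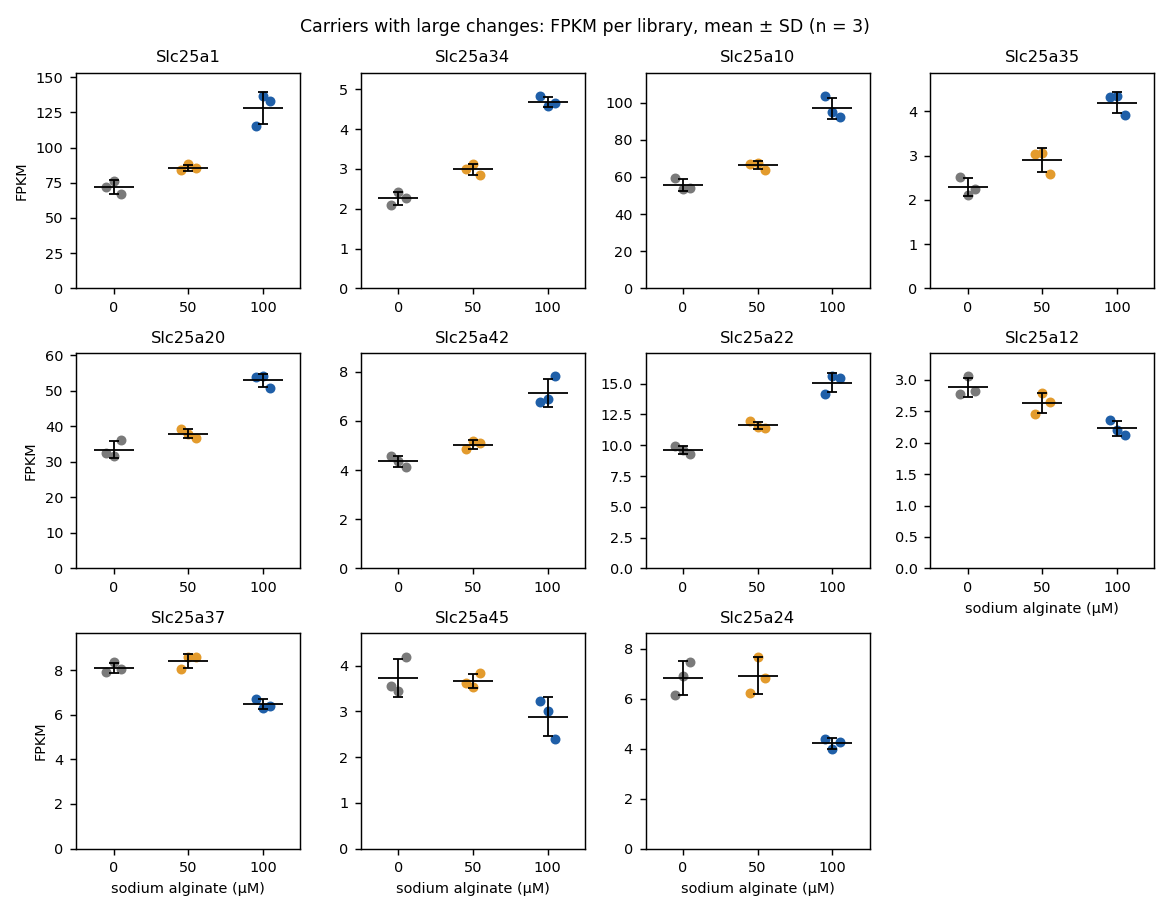
FPKM of 7 carriers with large called increases and the 4 with called decreases at 100 µM against 0 µM alginate, in order of fold change. Points are libraries, and lines with bars are mean ± SD (n = 3 per dose). In all 11 panels the 100 µM libraries lie wholly on one side of the 0 µM libraries.

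Among carriers of amino acids, 2 of 6 tested were higher, 1 was lower and 3 were not called. Slc25a22, a glutamate carrier, had 14.2, 15.6 and 15.5 FPKM at 100 µM, against 9.91, 9.65 and 9.29 FPKM at 0 µM. The libraries did not overlap (log2 fold change 0.60 ± 0.0497, adjusted p = 3.92e-05, limma), and at 50 µM it came nearest to the threshold of all carriers, at 12.0, 11.5 and 11.4 FPKM (0.25 against 0 µM, adjusted p = 0.0615). Slc25a44, the carrier of branched-chain amino acids, which brown fat burns for heat, had 41.8, 44.6 and 42.7 FPKM at 100 µM, against 31.1, 27.9 and 29.3 FPKM at 0 µM. Its groups were apart as well (0.53 ± 0.0526, adjusted p = 9.29e-05, limma).

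Slc25a12, the aspartate/glutamate carrier aralar of the malate-aspartate shuttle, was the amino acid carrier that fell. It had 2.36, 2.20 and 2.13 FPKM at 100 µM, against 2.77, 3.06 and 2.83 FPKM at 0 µM, without overlap. The log2 fold change was -0.27 ± 0.0696 (SE, adjusted p = 0.0161, limma), and the call was lost without replicate 2 of 0 µM (-0.24) or replicate 3 of 100 µM (-0.25). Slc25a11 and Slc25a12, the carriers of that shuttle above the filter, thus moved in opposite directions at unequal levels. Slc25a38, which brings glycine in for heme synthesis, had a log2 fold change of 0.12 (95% interval -0.01 to 0.24). Intervals of -0.13 to 0.13 for the ornithine carrier Slc25a15 and -0.17 to 0.32 for the basic amino acid carrier Slc25a29 leave small changes of either sign possible.

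Of the 8 carriers of cofactors and nucleotides described here, 5 were higher, 3 were not called and none was lower. Slc25a42, a coenzyme A carrier, had 6.78, 6.88 and 7.81 FPKM at 100 µM, against 4.58, 4.36 and 4.14 FPKM at 0 µM, without overlap (log2 fold change 0.60 ± 0.0633, adjusted p = 0.000129, limma).

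Slc25a17, a carrier of coenzyme A and other nucleotide cofactors in the peroxisome rather than the mitochondrion, was the highest of the class. It had 62.7, 67.9 and 64.2 FPKM at 100 µM, against 49.4, 51.2 and 51.9 FPKM at 0 µM, and did not overlap (0.35 ± 0.0417, adjusted p = 0.000272, limma). The NAD carrier Slc25a51 had a log2 fold change of 0.41 (adjusted p = 0.00012) and the S-adenosylmethionine carrier Slc25a26 one of 0.50 (adjusted p = 0.00118). Slc25a16, tied to coenzyme A supply, had one of 0.29 (adjusted p = 0.0143), a call lost on the TPM scale (0.22) and without replicate 2 of 0 µM (0.25). Slc25a26 shares 144 bases with Lrig1 on the opposite strand, so its reads may include some of that gene.

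The pyrimidine nucleotide carriers Slc25a33 and Slc25a36 and the folate carrier Slc25a32 were not called. Slc25a33 had 13.5, 11.3 and 9.11 FPKM at 100 µM, against 7.06, 10.2 and 8.61 FPKM at 0 µM, with overlapping groups and the widest spread among carriers near its level (0.35, 95% interval 0.02 to 0.69, adjusted p = 0.0967, limma). Without replicate 3 of 100 µM it was called (0.49, adjusted p = 0.0321). Slc25a36 had 10.1, 11.2 and 10.6 FPKM at 100 µM, against 10.3, 9.26 and 10.5 FPKM at 0 µM, which overlapped (0.08, 95% interval -0.06 to 0.23), and Slc25a32 gave 0.16 (95% interval -0.01 to 0.34). Their ratio, Slc25a36 to Slc25a33, was 0.969 ± 0.210 at 100 µM and 1.20 ± 0.274 at 0 µM (SD, n = 3 each), and the groups overlapped.

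The glutathione carriers split. Slc25a39, which imports glutathione into the matrix, had 99.3, 99.1 and 93.3 FPKM at 100 µM, against 64.9, 67.2 and 64.4 FPKM at 0 µM, with no overlap (log2 fold change 0.56 ± 0.0413, adjusted p = 2.3e-05, limma). Its paralog Slc25a40 had 1.97, 2.23 and 1.97 FPKM at 100 µM, against 1.82, 2.10 and 2.18 FPKM at 0 µM, and these values overlapped (0.01, 95% interval -0.18 to 0.20). Slc25a39 was 47.4 ± 2.92 times as high as Slc25a40 at 100 µM and 32.4 ± 3.11 times at 0 µM (SD, n = 3 each).

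Of the mitoferrins, the iron importers that feed heme and iron-sulfur cluster synthesis, Slc25a37 (mitoferrin 1) fell and Slc25a28 (mitoferrin 2) was not called. Slc25a37 had 6.71, 6.29 and 6.40 FPKM at 100 µM, against 7.92, 8.35 and 8.03 FPKM at 0 µM, a log2 fold change of -0.29 ± 0.0481 (SE, adjusted p = 0.00176, limma). The 50 µM libraries, at 8.05, 8.61 and 8.60 FPKM, also stood above every 100 µM library (-0.33 at 100 µM against 50 µM, adjusted p = 0.00126). Slc25a28 had 18.8, 17.7 and 18.9 FPKM at 100 µM, against 19.9, 19.3 and 18.0 FPKM at 0 µM, and the groups overlapped (-0.04, 95% interval -0.19 to 0.10). The ratio of Slc25a37 to Slc25a28 was 0.350 ± 0.0101 at 100 µM and 0.426 ± 0.0245 at 0 µM (SD, n = 3 each). At 50 µM it was 0.492 ± 0.0465 (SD, n = 3), wholly above the 0 µM libraries (exact permutation p = 0.1, adjusted 0.3). The mean ratio thus did not fall steadily with dose. Neither gene was called at 50 µM against 0 µM, however, so a rise of the ratio there is not established. Antisense genes overlap Slc25a37, the highest of them Gm27222, at a mean of 3.26 FPKM over the 9 libraries, so part of its reads may be theirs.

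**Figure D4:**
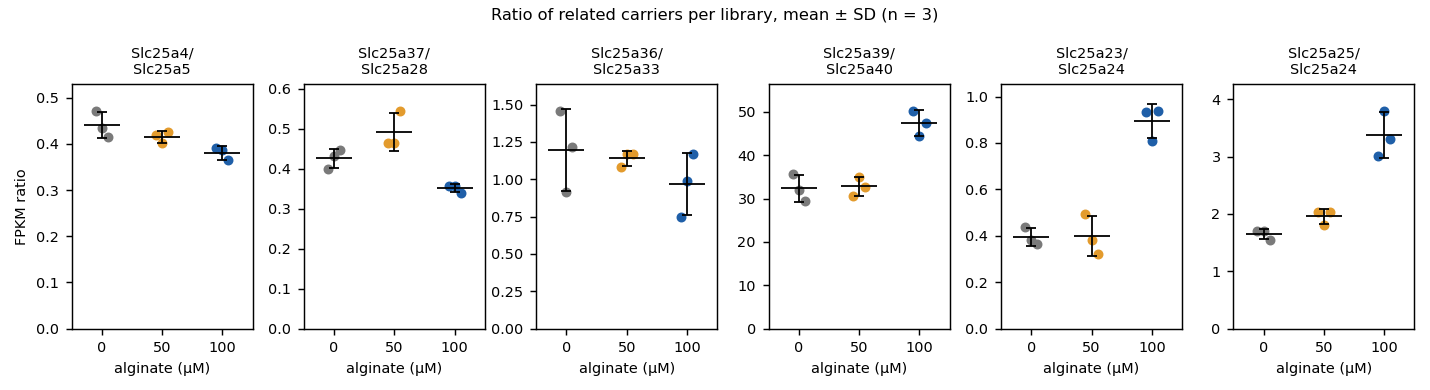
FPKM ratio of 6 pairs of related carriers in each library at 0, 50 and 100 µM alginate, with mean ± SD (n = 3 per dose). For 5 pairs the 100 µM libraries lie wholly outside the range at 0 µM, and for Slc25a36 to Slc25a33 they overlap.

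Of the 6 pairs of related carriers with both genes above the filter, 5 had ratios at 100 µM that did not overlap with those at 0 µM. Among all tested genes taken singly, 25.0% lay wholly above and 22.9% wholly below at these doses. The share among ratios of other gene pairs was not computed, so the count is not set apart from it. The differences in mean log2 ratio at 100 µM against 0 µM were -0.21 for Slc25a4 to Slc25a5, -0.28 for Slc25a37 to Slc25a28, 0.55 for Slc25a39 to Slc25a40, 1.18 for Slc25a23 to Slc25a24 and 1.03 for Slc25a25 to Slc25a24. Each gave an exact two-sided permutation p of 0.1, the smallest possible with 3 libraries each, and 0.12 after Benjamini-Hochberg adjustment over the 6 pairs. Slc25a36 to Slc25a33 gave -0.30 (exact permutation p = 0.4, adjusted 0.4). The ratios with Slc25a24 are not independent of each other.

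The 2 tested uncoupling protein-like carriers with Slc25a symbols were not called. Ucp1, Ucp2 and Ucp3 have other symbols and were read with the transport genes outside the Slc25 names. Ucp2, named after its values were seen, was higher at 100 µM than at 0 µM (0.26, adjusted p = 0.0189, limma). Ucp1 and Ucp3, at means of 0.212 and 0.407 FPKM, were under the filter and not tested. Slc25a30, a carrier first described in kidney, had 11.7, 9.62 and 10.9 FPKM at 100 µM, against 9.87, 8.69 and 9.73 FPKM at 0 µM, which overlapped (0.17, 95% interval -0.05 to 0.39). Slc25a14 gave a wide interval, -0.44 to 0.26, at a mean of 1.51 FPKM.

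Carriers with no assigned substrate included some of the larger changes, with 3 of 5 tested higher and 1 lower. Slc25a34 had 2.09, 2.43 and 2.27 FPKM at 0 µM, 3.00, 3.12 and 2.84 FPKM at 50 µM, then 4.83, 4.58 and 4.65 FPKM at 100 µM. The doses formed 3 separate groups. The log2 fold change of 100 µM against 0 µM was 0.80 ± 0.0639 (SE, adjusted p = 3.28e-05, limma), and with a pseudocount of 0.1 FPKM in place of 1 it was 1.02, above the 0.83 of Slc25a1 on that scale. Slc25a35, also an orphan carrier, had 4.32, 4.34 and 3.92 FPKM at 100 µM, against 2.51, 2.10 and 2.26 FPKM at 0 µM, with no overlap (0.66 ± 0.0789, adjusted p = 0.000266, limma).

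Slc25a46, which sits in the outer membrane and is known for a role in mitochondrial fission and fusion rather than transport, had 29.1, 31.1 and 28.0 FPKM at 100 µM, against 22.4, 20.4 and 22.7 FPKM at 0 µM. It rose without overlap (0.42 ± 0.0548, adjusted p = 0.000452, limma). Slc25a45 had 3.22, 3.01 and 2.40 FPKM at 100 µM, against 3.55, 3.44 and 4.20 FPKM at 0 µM, also without overlap (-0.29 ± 0.0948, adjusted p = 0.0423, limma), but its call was lost under most alternatives, where the fold change lay between -0.20 and -0.37. Slc25a47 gave -0.09 (95% interval -0.44 to 0.27).

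At 50 µM against 0 µM, limma called 0 of the 36 carriers, where 0.356% of all tested genes were higher and 0.435% lower. An unadjusted p below 0.05 was reached by 14 of the 36 carriers, and by 1814 of all 12635 tested genes (14.4%). Limma-voom on rebuilt reads called 4 carriers higher, Slc25a10, Slc25a22, Slc25a25 and Slc25a1, where it called 1.18% of all genes higher and 1.47% lower. The median log2 fold change was 0.09 over the carriers and 0.01 over all genes. The 3 values at 50 µM lay wholly above those at 0 µM for 16 carriers (44.4%) and wholly below for 0, where the shares over all genes were 12.1% and 8.58%. The 3 carboxylate carriers, Slc25a20, Slc25a22, Slc25a34 and Slc25a35 were among the 16, with log2 fold changes between 0.15 and 0.29. Slc25a24, the carrier with the largest fall at 100 µM, had an interval of -0.17 to 0.21 at 50 µM.

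At 100 µM against 50 µM, 19 of the 36 carriers were higher (52.8%) and 2 lower (5.56%), and over all genes 13.2% were higher and 12.0% lower. These 100 µM libraries are the same as in the comparison with 0 µM, so the 2 results are not independent. Scaled to plain read totals, all genes split into 1102 higher and 2180 lower, in place of 1663 higher and 1510 lower, and the carriers into 16 higher and 4 lower. On the TPM scale the split was 1060 and 2031 over all genes, and 15 and 3 over the carriers. The median was 0.22 over the carriers and 0.01 over all genes. Values did not overlap for 20 carriers upward (55.6%) and 4 downward (11.1%), where the shares over all genes were 20.9% and 19.5%. Slc25a24 and Slc25a37 were the 2 lower carriers. Slc25a25 and Slc25a16, called against 0 µM, were not called against 50 µM, and Slc25a16 had a log2 fold change of 0.22 there (adjusted p = 0.0524, limma).

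Several carriers lie close to each other in the genome. Within 100 kb of each other in the strain assembly were Slc25a29 and Slc25a47 on chromosome 12, with 17558 bases between them, Slc25a41 and Slc25a23 on chromosome 17 with 2966 bases, Slc25a54 and Slc25a24 on chromosome 3 with 7827 bases, and Slc25a43 and Slc25a5 on chromosome X with 18157 bases. In 3 of these pairs a member under the filter stood beside a tested one, and Slc25a43 at a mean of 0.129 FPKM neighboured Slc25a5 at 439 FPKM. In all, 7 tested carriers overlap a gene that averaged at least 1 FPKM, among them Slc25a11, which shares 245 bases with Rnf167 on the opposite strand.

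Mitochondrial transport proteins outside the Slc25 names were read from a list of 32, of which 31 were found and 27 tested. With 100 µM against 0 µM, 14 of these 27 were higher and 3 lower, with a median log2 fold change of 0.26. Over all genes, 18.3% were higher and 15.6% lower. Letm1, a cation/proton exchange protein, had a log2 fold change of 0.65 (adjusted p = 1.55e-05, limma), Mcur1, a regulator of calcium uptake, one of 0.59 (adjusted p = 1.55e-05), and Mpc2, a subunit of the pyruvate carrier, one of 0.77 (adjusted p = 2.25e-05). Lower were Sfxn3, a sideroflexin (-0.47, adjusted p = 0.0067), Ccdc109b, now Mcub, an inhibitory subunit of the calcium uniporter (-0.59, adjusted p = 0.0097), and Cpt1a, which makes the acylcarnitine that Slc25a20 carries (-0.16, adjusted p = 0.038). The Cpt1a call was lost without a filter, with only the 2 doses compared and on leaving out any 0 µM library, or replicate 1 or 2 of 50 µM or of 100 µM. Cpt2, the carnitine palmitoyltransferase of the matrix side, named after its values were seen, rose by 0.55 (adjusted p = 5.9e-05, limma). At 50 µM against 0 µM, 1 gene of the list was called, Tspo, a cholesterol-binding outer membrane protein, at 0.37 (adjusted p = 0.0452, limma), where 0.356% of all genes were higher. The Tspo call was lost without a filter, with only the 2 doses compared, with the replicate block and on leaving out any 0 µM or 50 µM library or replicate 2 of 100 µM, and its fold change there lay between 0.36 and 0.37. With 100 µM against 50 µM, 13 of the 27 tested were higher and 3 lower, where the shares over all genes were 13.2% and 12.0%.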

How the data were processed

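The authors deposited FPKM per gene for 9 libraries, per the file headers. Builds GRCm38 and mm10 are named in the submitters' processing notes, whereas identifiers and coordinates in the table belong to the C57BL/6NJ strain assembly and were left as they are. For the aligner and counter, the sources used here give no name. FPKM times gene length gave whole reads for 100% of values within a tolerance of 0.01 read, so depth could be rebuilt. Differences were tested in limma 3.58.1 under R 4.3.3, after taking log2(FPKM + 1) (trended variance, 1 mean per dose, all 9 libraries, two-sided), over the 12635 genes that had 3 or more libraries at 1 FPKM or above. P-values were Benjamini-Hochberg adjusted over all of these. The added 1 makes fold changes of low genes smaller than they are. Ratios and sums were compared with exact permutation tests. The procedure was tested on simulated data whose spread was fixed rather than taken from these libraries. Of 500 planted changes of each size per comparison, it recovered 60.8% to 65% at 1.41-fold and 88.8% to 91% at 2-fold. There were 37 to 43 false calls per comparison over all draws. Only a small share of the 12635 genes was changed in a draw, whereas 18.3% were called higher and 15.6% lower at 100 µM against 0 µM. Recovery after adjustment depends on that share, so these figures need not hold for the real comparisons. Smaller changes were not tried. The carriers, their classes, the other lists and the rule for naming genes (the called carriers with the 8 largest rises and up to 8 falls, both genes of each ratio, and the highest of each class) were chosen with earlier results of these data known. Deviations from the dose means correlated at -0.0941 to 0.0412 over 9 pairs of same-numbered libraries of different doses. Over 18 pairs with different numbers the range was -0.0814 to 0.0983. This gave no sign that the numbers pair libraries, but with 3 libraries per dose it cannot exclude a shared culture or animal. Of the tested carriers, 1 that this rule names is counted in the totals but not reported here.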

Additional observations from a re-analysis of the deposited data

How the results depend on the processing

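Alternatives were a pseudocount of 0.1 FPKM, no filter, a filter at a mean of 5 FPKM, the TPM scale, quantile normalization, plain read totals, limma-voom on rebuilt reads, only the 2 doses compared, a replicate block, and leaving out each library. An edgeR count test was not run. The cause of the shifts below was not tested.

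At 100 µM against 0 µM, the carriers called lower numbered 2 with the 5 FPKM filter, where fewer genes were tested, and 2 to 4 when a library was left out (2 without replicate 2 of 0 µM or replicate 3 of 100 µM), while those higher numbered 18 with the 5 FPKM filter and 19 to 21 when a library was left out. At 50 µM against 0 µM, 2 carriers were higher with the 5 FPKM filter, 4 with voom and 0 to 1 when a library was left out (Slc25a22, without replicate 1 of 100 µM). At 100 µM against 50 µM, 4 were lower on plain read totals. The other mitochondrial transport genes called higher at 50 µM against 0 µM numbered 0 without a filter, 4 with the 5 FPKM filter, 2 on plain read totals, 5 with voom, 0 with only 2 doses, 0 with the replicate block and 0 to 2 when a library was left out. With the replicate block, 21 carriers were higher and 3 lower at 100 µM against 0 µM, 0 were called at 50 µM, and 16 were higher and 2 lower at 100 µM against 50 µM. In that block, 1 of 9 libraries correlated best with its own number.

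Single carriers were recomputed for all 36 at 100 µM against 0 µM and for 12 in each other comparison, and of these, the carriers whose direction turned were not called in that comparison. At 100 µM against 0 µM, the log2 fold change of Slc25a15 was 0.00689 after quantile normalization and 0.00553 with voom, and that of Slc25a40 was -0.0392 on the TPM scale and -0.0352 on plain read totals. When each library was left out in turn, the log2 fold change ran from -0.0253 to 0.0393 for Slc25a15, from -0.0404 to 0.0469 for Slc25a40, from -0.234 to 0.0247 for Slc25a14 and from -0.205 to 0.0671 for Slc25a47. At 50 µM against 0 µM it ran from -0.0528 to 0.0782 for Slc25a24 and from -0.0619 to 0.0524 for Slc25a45. The difference in log2 ratio there ran from -0.224 to 0.115 for Slc25a36 to Slc25a33, from -0.0448 to 0.0920 for Slc25a39 to Slc25a40 and from -0.168 to 0.135 for Slc25a23 to Slc25a24. Of the single carriers' values at 100 µM against 0 µM under all alternatives, 602 kept direction and call, 25 lost the call, 1 gained it and 11 turned direction. Carriers under the filter entered a test only without it, where 45 were fitted.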
